A study of Mus musculus with 167 samples.

Results

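Reads of 5 mature miRNAs of the red-cell lineage, mmu-miR-144-3p, mmu-miR-144-5p, mmu-miR-451a, mmu-miR-486a-5p and mmu-miR-486b-5p, were followed through lung, heart, brain and 2 blood fractions, white cells (WBC) and red cells (RBC), of mice that had received whole thorax lung irradiation (WTLI) or a sham exposure. They were chosen by name, as 5 of the 1915 miRNAs listed in each of 5 count tables, and all 5 passed the filter on low counts in every tissue. The 2 rows of miR-486-5p were summed into 1 measure, miR-486-5p, wherever levels or ratios are given. In the fits they were kept as 2 rows, so counts of members there count this measure as 2.

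MiR-144 and miR-451a are made from neighbouring hairpins in 1 transcript that the erythroid factor GATA1 switches on. MiR-451a is cut from its short hairpin by the slicer protein Ago2 and not by Dicer, and it accumulates in red cells, where the best known target of the pair is Ywhaz, which encodes 14-3-3 zeta. MiR-486-5p lies within Ank1, the gene of erythrocyte ankyrin, and is known both from red cells and from striated muscle. These miRNAs are widely used to judge how much blood or lysed red cells a sample holds.

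The mature sequences are shown because the miRNAs of 1 cluster carry different seeds, and because their base composition returns in the comparison with other miRNAs. They are those of RefSeq on GRCm38, written 5′ to 3′ with the seed (bases 2 to 8) in capitals, and 3 of the 5 members had an entry. MiR-16-5p and miR-15a-5p, which are not members and share a seed with each other, are printed below them for that comparison.
miR-144-5p: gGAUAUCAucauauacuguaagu
miR-144-3p: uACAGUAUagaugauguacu
miR-451a: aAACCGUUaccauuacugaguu
miR-16-5p: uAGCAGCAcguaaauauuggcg
miR-15a-5p: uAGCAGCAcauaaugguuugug

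The GC content was 30.4% in miR-144-5p, 30.0% in miR-144-3p, 36.4% in miR-451a, 40.9% in miR-15a-5p and 45.5% in miR-16-5p. No seed was shared among the 3 members. The next pair of sequences shows where the mature arms, in capitals, lie in their hairpins: both arms of miR-144 are kept, whereas miR-451a runs from the 5′ strand into the loop.
Mir144 hairpin: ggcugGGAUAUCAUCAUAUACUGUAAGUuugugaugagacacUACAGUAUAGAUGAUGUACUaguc
Mir451a hairpin: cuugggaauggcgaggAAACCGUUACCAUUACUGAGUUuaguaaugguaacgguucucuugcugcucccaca

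Both hairpins are on the plus strand of chromosome 11 (GRCm38), Mir144 at chr11:78073005-78073070 and Mir451a at chr11:78073170-78073241, with 99 bases between them and no annotated gene spanning them. Mir451b is annotated on the opposite strand at the place of Mir451a, and its mature miRNA had 0 counts in all 167 libraries. The miR-486 hairpins overlap each other on opposite strands of chromosome 8, Mir486 at chr8:23142555-23142682 on the plus strand and Mir3107, the source of miR-486b, at chr8:23142573-23142662 on the minus strand. Both lie in introns of Ank1 and of the antisense gene Gm15816.

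The 2 rows of miR-486-5p could not be told apart by their counts. Over all libraries 1993686 reads were given to miR-486a-5p and 1993462 to miR-486b-5p, nearly equal shares. In 7 of 167 libraries an exact binomial test against equal shares gave p under 0.05. How the authors placed reads that fit both was not stated.

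The animals were C3H mice (C3Hf/Sed/Kam, all female) in month 4 after WTLI or sham exposure, and C57Bl/6 (C57) mice of both sexes in month 6. The study's methods call the mice gnotobiotic, a word placed before both strains, and the labels name no genotype beyond the strain. Lung, heart, brain and RBC each had 7 irradiated and 8 sham C3H libraries and 5 irradiated and 15 sham C57 libraries, and WBC had 6, 5, 5 and 11. Females made up 1 of the 5 irradiated and 7 of the 15 sham C57 animals. The 167 libraries came from 35 mice, so most tissues of an animal were represented, and strain, month and in part sex cannot be told apart. Sample titles also carried the letter A or B, which the labels do not explain.

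Total counts per library ranged from 1794995 in brain to 7865102 in WBC. Levels are given as RPM, the reads scaled to a library total of 1000000, and a single library's members rested on 4 to 197455 reads.

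Tissue labels were checked against marker miRNAs. Summed striated muscle miRNAs (4 miRNAs) were 216000 to 299000 RPM in heart, except in C3H irradiated replicate 3 at 50700 RPM, and summed neuronal miRNAs (2 miRNAs) were 44400 to 108000 RPM in brain. The blood fractions were not separated by summed leukocyte markers. Summed leukocyte miRNAs (5 miRNAs: miR-150-5p, miR-155-5p, miR-223-3p and both arms of miR-142a, none at 0 in any library) had group medians of 16900 to 28000 RPM in WBC and 24200 to 28100 RPM in RBC. The ranges of the erythroid members, given below, overlapped between the fractions as well, although miR-144-3p was lower in WBC than in RBC of the same sham mice. The names WBC and RBC are therefore used only as the labels give them.

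Several sets of libraries stood apart in the erythroid miRNAs themselves. In RBC, C3H irradiated replicates 5, 6 and 7 had 7511, 3562 and 2463 RPM of miR-451a, while the other 4 libraries of the group had 16580 to 28900 RPM. Also in RBC, the 4 C57 female libraries of letter B had 19600 to 34550 RPM of miR-144-5p. All other C57 RBC libraries had 7780 to 15980 RPM of it. In brain, the 4 C57 female libraries of letter B had 69.3 to 110 RPM of miR-486-5p, while all other C57 brain libraries had 9.62 to 30.93 RPM. In heart, the ratio of miR-144-3p to miR-144-5p was 0.879 to 1.69 in C3H libraries of letter A and 0.147 to 0.389 in those of letter B. Changes of the members in C3H heart are also given within the letter. Some values of miR-486-5p are also given without the C3H RBC set or the brain set, a step chosen after the data were seen and from those same values.

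All 4 measures were highest in the blood fractions and lowest in brain. In sham mice the members together made up a median of 6.26% of counts in RBC and 5.43% in WBC, against 0.0827% in heart, 0.0438% in lung and 0.0125% in brain. In bulk samples fewer red cells and less miRNA per red cell cannot be told apart. Solid tissues were taken after infusion of PBS, per the study's methods.

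For miR-451a the sham levels (lowest, median and highest of 23 libraries) were 6796, 14090 and 41120 RPM in RBC, and 5694, 12080 and 60070 RPM in WBC (16 libraries). They were 36.52, 158.5 and 881.6 RPM in heart, 23.02, 88.83 and 560.7 RPM in lung, and 5.844, 23.92 and 147.4 RPM in brain. Neither blood fraction overlapped with any solid tissue, and heart, lung and brain overlapped with each other. On the log2(RPM + 1) scale, miR-451a in brain minus RBC of the same sham mice was -8.90 ± 1.21 (SD, n = 23, lower in 23 of 23, adjusted p = 2.5e-05, paired permutation test). Brain was also below lung, by a difference of lung minus brain of 1.86 ± 1.30 (SD, 20 of 23 mice, adjusted p = 2.5e-05).

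MiR-144-3p, the guide arm against most described miR-144 targets, had sham medians of 14710 RPM in RBC, 7604 RPM in WBC, 124.5 RPM in heart, 51.26 RPM in lung and 21.1 RPM in brain. It was the member that differed between the blood fractions: WBC minus RBC was -0.85 ± 0.35 on the log2 scale (SD, n = 16 mice), lower in WBC in 16 of 16 (adjusted p = 4.8e-05, paired permutation test). MiR-144-5p, the other arm of the same hairpin, had sham medians of 14710 RPM in RBC, 12060 RPM in WBC, 265.9 RPM in heart, 209.1 RPM in lung and 62.8 RPM in brain.

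WBC and RBC of the same mice were not separated for the other measures. The differences, WBC minus RBC, were -0.048 ± 0.915 for miR-144-5p (adjusted p = 0.875, permutation test), -0.0040 ± 1.09 for miR-451a (adjusted p = 0.988, permutation test) and -0.039 ± 1.13 for miR-486-5p (adjusted p = 0.913, permutation test), each with its SD over 16 mice. Single mice went either way, with miR-451a lower in WBC in 9 of 16.

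MiR-486-5p was the member that separated heart from lung most. Its sham levels (lowest, median and highest) were 107.4, 251.7 and 900.4 RPM in heart, 9.88, 49.17 and 225.3 RPM in lung, and 9.62, 17.5 and 110.1 RPM in brain. In blood the medians were 15150 RPM in WBC and 14690 RPM in RBC. Lung minus heart was -2.11 ± 1.48 (log2, SD, n = 23, lower in 21 of 23 mice, adjusted p = 2.5e-05, paired permutation test), whereas for miR-451a it was -0.52 ± 1.67 (14 of 23, adjusted p = 0.161) and for miR-144-5p -0.42 ± 1.34 (15 of 23, adjusted p = 0.161). MiR-144-3p lay between, at -1.52 ± 2.18 (17 of 23, adjusted p = 0.00359). Of 40 such tests of levels between tissues, 35 passed an adjusted p of 0.05, and the 5 that did not are these 2 lung and heart pairs and the 3 blood pairs above.

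**Figure D1:**
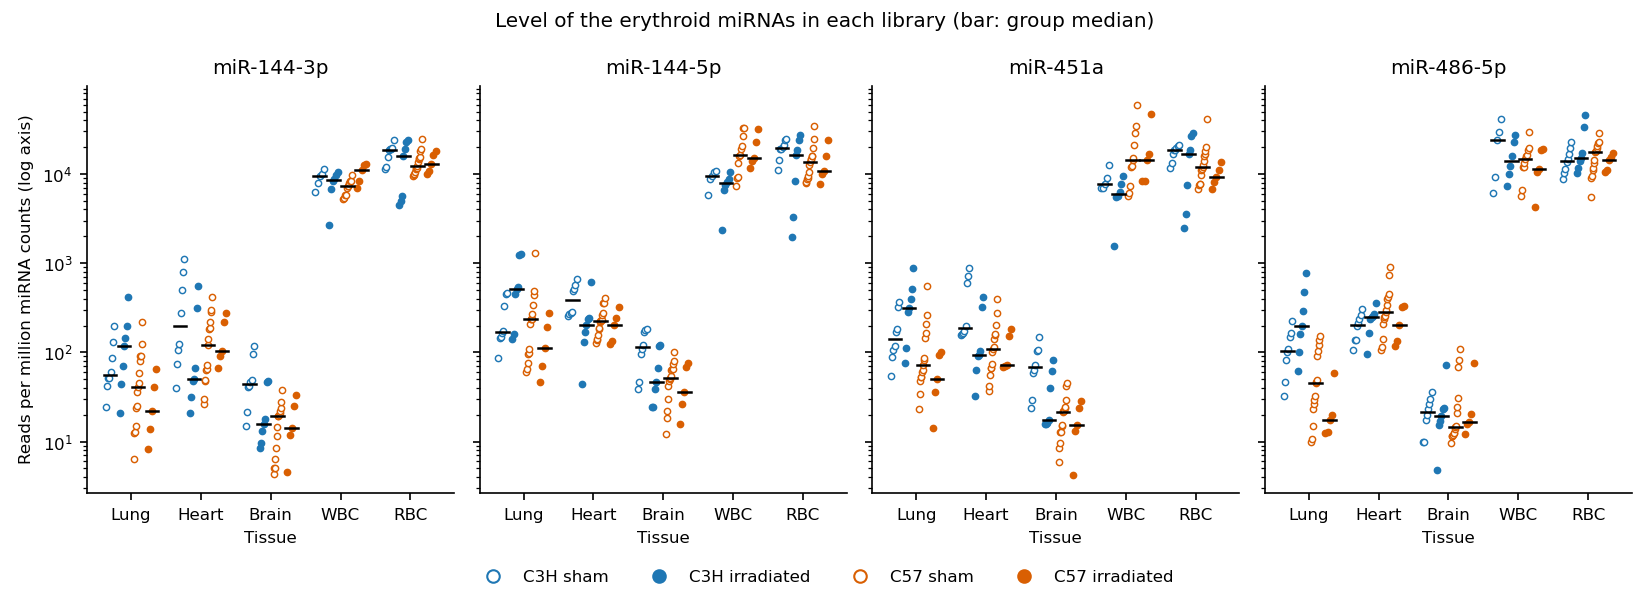
Level of miR-144-3p, miR-144-5p, miR-451a and miR-486-5p (y axis, RPM on a log scale) in each library of 5 tissues, by strain and irradiation, with a bar at the group median. The WBC and RBC libraries of each measure lie above those of lung, heart and brain, and brain medians are lowest, as with 23.92 RPM of miR-451a in sham brain against 14090 RPM in sham RBC.

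The plot of levels by tissue shows a gap between blood and solid tissues for each measure, in irradiated and sham libraries of both strains. Libraries of a group spread widely within lung, heart and brain.

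The scaling to the library total cancels in the ratio of miR-486-5p to miR-451a within a library. Since RNAs differ in how well they enter a library, it is read only for how it differs between tissues and not as a ratio of molecules. Its mean log2 value in sham mice was 0.71 in heart, 0.055 in RBC, -0.44 in brain and -0.91 in lung, and 0.22 in the WBC libraries. Lung minus heart was -1.62 ± 1.84 (SD, 20 of 23 mice, adjusted p = 0.00155, paired permutation test), and heart minus brain was 1.15 ± 1.69 (18 of 23, adjusted p = 0.0099). Without the C57 female brains of letter B, which were set apart by their miR-486-5p, heart minus brain had a mean of 1.35 over 20 mice, a value given with no test. Lung was also below RBC, at -0.96 ± 1.75 (16 of 23, adjusted p = 0.0376), and below WBC, at -1.28 ± 1.07 (14 of 16, adjusted p = 0.00155). Heart minus RBC was 0.65 ± 1.91 (15 of 23, adjusted p = 0.231), so a higher ratio in heart than in the RBC libraries was not shown.

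The 2 arms of miR-144, which come from 1 hairpin, were counted in different proportions. Each tissue has its own count table, so tissue and set of libraries cannot be told apart, and how far each arm is kept was not tested. The mean log2 ratio of miR-144-3p to miR-144-5p in sham mice was -0.052 in RBC, -0.86 in WBC, -0.97 in heart, -1.55 in brain and -2.09 in lung. Lung minus RBC was -2.04 ± 0.66 and brain minus RBC was -1.501 ± 0.58 (SD, lower in 23 of 23 mice each, adjusted p = 5e-05 each, paired permutation test). Lung was also below brain, at -0.54 ± 0.63 (20 of 23, adjusted p = 0.00112), while heart minus brain was 0.58 ± 1.33 (14 of 23, adjusted p = 0.0552) and heart minus WBC was -0.019 ± 1.49 (10 of 16, adjusted p = 0.958). WBC lay below RBC, at -0.80 ± 0.80 (13 of 16, adjusted p = 0.00216).

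In heart the arm ratio split into sets with the letter and the sex. It was 0.879 to 1.69 in 7 C3H libraries of letter A and 0.147 to 0.389 in 8 of letter B, with no overlap. Among C57 hearts it was 0.456 to 1.45 in 12 male libraries and 0.144 to 0.349 in 8 female libraries, again with no overlap. Since these sets were seen in the values, their difference was not tested. In lung the same sets of C3H libraries gave 0.086 to 0.349 for letter A and 0.26 to 0.44 for letter B, which overlapped.

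**Figure D2:**
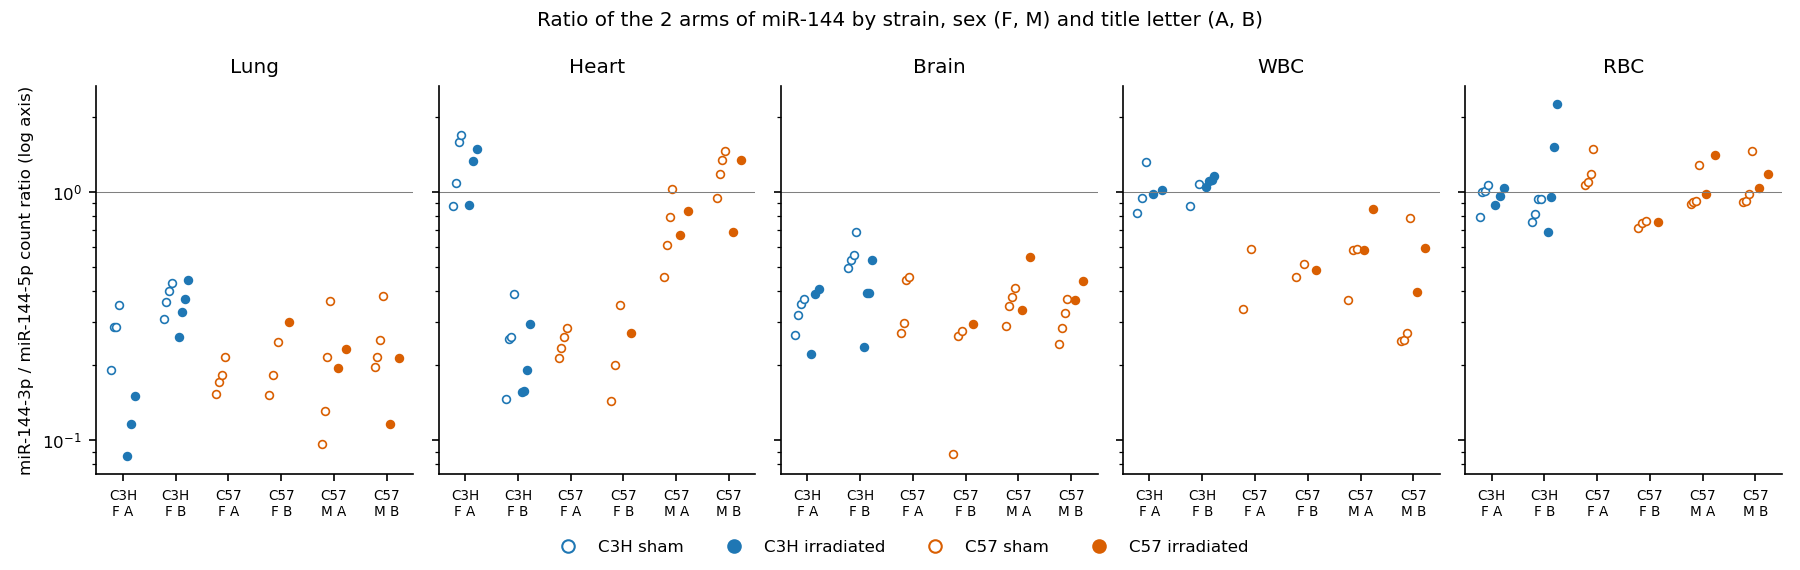
Ratio of miR-144-3p to miR-144-5p (y axis, log scale) in each library of 5 tissues, by strain, sex and title letter. In heart, C3H libraries of letter A (0.879 to 1.69) lie apart from those of letter B (0.147 to 0.389), and C57 males (0.456 to 1.45) lie apart from C57 females (0.144 to 0.349).

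The plot of the arm ratio shows the order of the tissues together with the spread inside each. RBC libraries are centred near equal counts of the 2 arms, and lung libraries hold more reads of the 5p arm.

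Whether the members moved together from library to library was asked with deviations of log2(RPM + 1) from the mean of each strain and irradiation group, for 6 pairs of 4 measures in 5 tissues (30 relations, adjusted together, two-sided permutation tests). The 3 miRNAs of the chromosome 11 cluster had positive r past the test in every tissue over all libraries, while some subsets and settings gave low values. Within letter B of heart the arms of miR-144 had 0.136 and miR-144-5p with miR-451a 0.319. With quantile-normalised values the arms of miR-144 in RBC had r of 0.223 (adjusted permutation p = 0.233), and in sham WBC libraries alone miR-144-3p and miR-451a had 0.527 (adjusted permutation p = 0.0546). In lung, r was 0.895 for the 2 miR-144 arms, 0.891 for miR-144-3p with miR-451a and 0.921 for miR-144-5p with miR-451a (n = 35, rho 0.900, 0.883 and 0.890, permutation p = 1e-05 and adjusted p = 2e-05 each, the smallest that the resampling can give). Without the 2 libraries farthest from the median they were 0.873, 0.859 and 0.894, and within a letter they lay between 0.855 and 0.947.

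In brain the same 3 pairs had r of 0.874, 0.913 and 0.889 (rho 0.870, 0.908 and 0.910), and in RBC 0.919, 0.900 and 0.929 (rho 0.896, 0.881 and 0.871), with an adjusted permutation p of 2e-05 each. In WBC (n = 27) they were 0.777 (rho 0.686), 0.633 (rho 0.545, adjusted permutation p = 0.000467) and 0.928 (rho 0.910). Leaving out the 2 farthest libraries gave 0.855 to 0.899 in brain, 0.856 to 0.888 in RBC and 0.498 to 0.902 in WBC. Within a letter the values ran from 0.853 to 0.956 in brain, from 0.867 to 0.939 in RBC and from 0.541 to 0.943 in WBC (12 libraries of letter A and 15 of letter B).

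In heart the arms of miR-144 had r of 0.534 (rho 0.513, permutation p = 0.00078, adjusted p = 0.00117), 0.399 without the 2 farthest libraries. It was 0.681 within letter A and 0.136 within letter B. MiR-144-3p and miR-451a in heart had r of 0.903 (rho 0.888, adjusted permutation p = 2e-05), and miR-144-5p and miR-451a 0.746 (rho 0.716, adjusted permutation p = 2e-05). Within letters A and B these were 0.910 and 0.904 for the first and 0.855 and 0.319 for the second. When means of group, sex and letter were removed, a step chosen after the data were seen, the 3 heart values were 0.838, 0.906 and 0.897 (n = 34). They are given with no test, since these sets were seen in the arm ratio itself and removing their means can raise r.

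MiR-486-5p moved with the cluster in lung and in no other tissue passed the test with a positive r. In lung r was 0.704 with miR-144-3p (rho 0.756), 0.862 with miR-144-5p (rho 0.895) and 0.666 with miR-451a (rho 0.672), with adjusted permutation p-values of 2e-05, 2e-05 and 7.06e-05. Without the 2 farthest libraries these were 0.688, 0.867 and 0.639, and within a letter 0.601 to 0.872. The difference between tissues in these relations was not tested.

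In heart, miR-486-5p had r of -0.426 with miR-144-3p (rho -0.415, permutation p = 0.0104, adjusted p = 0.0142), 0.113 with miR-144-5p (adjusted p = 0.555) and -0.316 with miR-451a (rho -0.336, adjusted p = 0.0814). The call with miR-144-3p was lost with means of group, sex and letter removed (-0.329, adjusted permutation p = 0.075), while with quantile-normalised values that with miR-451a passed (-0.491, adjusted permutation p = 0.00409). The values with miR-144-3p and miR-451a were -0.163 and -0.086 within letter A and -0.831 and -0.807 within letter B. In brain r was -0.298, -0.034 and -0.342 (adjusted permutation p = 0.0979, 0.879 and 0.0571), and with means of group, sex and letter removed 0.056, 0.188 and -0.005. With quantile-normalised values the brain r passed for miR-144-3p (-0.369, adjusted permutation p = 0.038) and miR-451a (-0.409, adjusted permutation p = 0.0202). In WBC r was -0.267, 0.027 and 0.189, with adjusted permutation p-values of 0.207, 0.893 and 0.381, and -0.327 to 0.486 within letter A and -0.379 to -0.336 within letter B.

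In RBC, miR-486-5p moved against the cluster. The r was -0.589 with miR-144-3p (rho -0.555, adjusted permutation p = 0.000489), -0.630 with miR-144-5p (rho -0.504, adjusted permutation p = 5.62e-05) and -0.497 with miR-451a (rho -0.373, adjusted permutation p = 0.00369). Without the 2 farthest libraries these were -0.445, -0.474 and -0.373, and they were -0.442, -0.317 and -0.250 within letter A and -0.682, -0.800 and -0.643 within letter B. In sham libraries alone r was -0.365, -0.330 and -0.081 (adjusted permutation p = 0.12, 0.163 and 0.737), none past the threshold. C3H irradiated replicates 5, 6 and 7 held little miR-451a and 15070, 33470 and 45290 RPM of miR-486-5p, and r without them was -0.428, -0.397 and -0.169 (n = 32), given with no test because they were picked by these values. The C57 female libraries of letter B, high in miR-144-5p, held 5488 to 11710 RPM of miR-486-5p, and their part was not tested. With means of group, sex and letter removed, a step chosen after the data were seen, r was -0.611, -0.687 and -0.550.

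**Figure D3:**
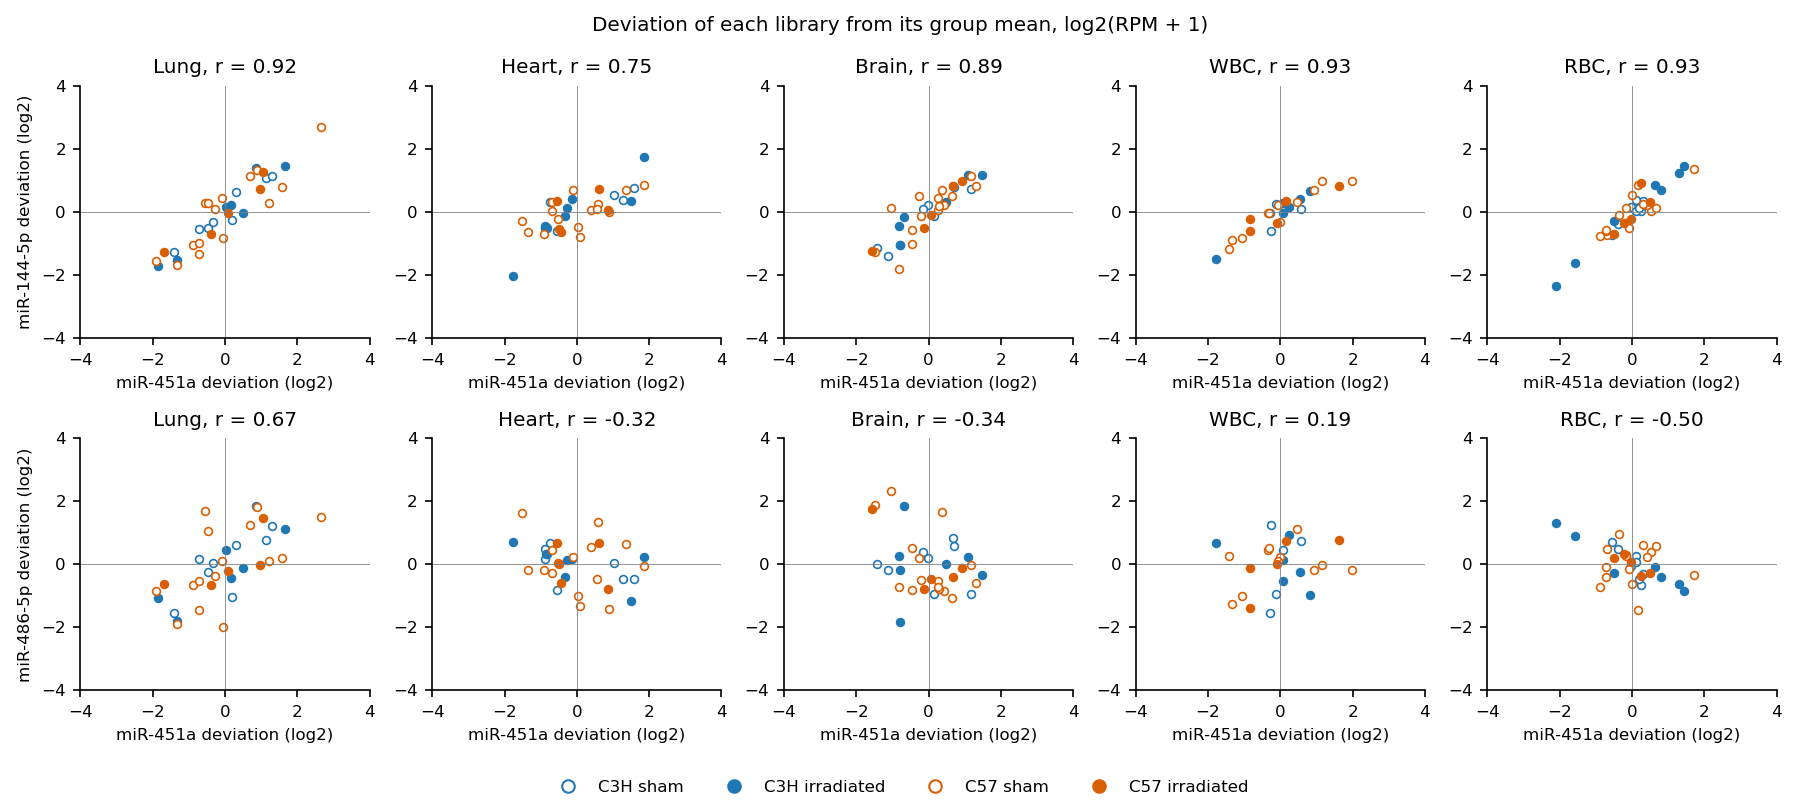
Deviation of miR-144-5p (upper row) and of miR-486-5p (lower row) against that of miR-451a (x axis) from the mean of each strain and irradiation group, in log2(RPM + 1), with 1 point per library in 5 tissues. MiR-144-5p lies along a rising line in each tissue (r of 0.746 to 0.929), while miR-486-5p rises with miR-451a in lung (r of 0.666) and slopes down in RBC (r of -0.497).

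The plot of paired deviations shows C3H irradiated RBC replicates 6 and 7 at the far left, low in the upper and high in the lower row. In replicates 5, 6 and 7, miR-16-5p, the most abundant miRNA of the blood fractions, took 461900 to 509000 RPM. In the other 4 of the group it took 302000 to 368200 RPM. A large share of 1 miRNA lowers the RPM of all others, and its part in these relations was not tested.

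The r of a measure with the log2 library total lay between -0.412 (miR-451a in lung) and 0.388 (miR-486-5p in RBC). It was negative in all 5 tissues for miR-451a and both arms of miR-144, whereas for miR-486-5p it was positive in heart, brain, WBC and RBC and -0.090 in lung. The part of depth in the relations above was not tested.

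The miRNAs most like miR-451a were named by the mean r of their deviations. Over lung, heart and brain, the highest of 268 miRNAs other than the members were miR-106b-5p at 0.656, miR-19a-3p at 0.642, miR-15a-5p at 0.626, miR-186-5p at 0.612 and miR-20a-5p at 0.601. Over WBC and RBC, the highest of 221 were let-7i-3p at 0.948, miR-15a-5p at 0.929, miR-19a-3p at 0.913, miR-30b-5p at 0.907 and miR-22-3p at 0.900. All points within a tissue share its libraries and their totals, so these values describe likeness and were not tested.

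How far the cluster stood apart from other miRNAs differed by tissue. In lung no other miRNA exceeded an r of 0.521 with miR-451a, whereas the cluster's own arms were at 0.891 and 0.921. In brain the highest was 0.717, that of the leukocyte miRNA miR-142a-5p, and in neither tissue did any of the others reach 0.8. In heart 14 of 307 other miRNAs reached 0.8, in WBC 24 of 286 and in RBC 34 of 224, with highest values of 0.851, 0.953 and 0.944. In the RBC and WBC libraries let-7i-3p, at 0.943 and 0.953, was therefore closer to miR-451a than miR-144-3p was, at 0.900 and 0.633.

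Of the leukocyte miRNAs, some had a high r with miR-451a in heart, brain or RBC. MiR-142a-5p had 0.825 in heart, 0.717 in brain, 0.917 in RBC, 0.273 in WBC and 0.224 in lung. In heart the other 4 had 0.730 (miR-223-3p), 0.652 (miR-142a-3p), 0.331 (miR-150-5p) and 0.029 (miR-155-5p). In brain, in the same order, they had 0.430, 0.284, -0.242 and -0.294, and in RBC 0.187, 0.072, 0.334 and 0.324. In WBC they had -0.487, 0.338, 0.095 and -0.023, and in lung 0.155, 0.048, -0.181 and -0.167. These values were looked up after the data were seen and are a description, and the part of leukocytes in the relations among the members was not tested.

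MiR-15a-5p and miR-16-5p share the seed printed above and are both abundant in red cells, yet in RBC, brain and heart their r with a given member differed in sign. The pair was chosen after the values were seen, so its r is given without a test. In RBC, miR-451a had r of 0.925 with miR-15a-5p and -0.740 with miR-16-5p (n = 35), and miR-486-5p had -0.596 and 0.709. MiR-16-5p took 302000 to 559100 RPM of the RBC libraries, and such a share lowers the RPM of others, a part not tested. In brain, miR-451a had 0.628 and -0.475 and miR-486-5p had -0.637 and 0.745. In heart, miR-451a had 0.828 and -0.521 and miR-486-5p had -0.452 and 0.671. In lung the values for miR-451a were 0.421 and 0.050, of the same sign, and for miR-486-5p -0.253 and 0.610. In WBC no values of opposite sign were seen, with 0.932 and 0.118 for miR-451a and 0.009 and 0.398 for miR-486-5p.

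The r of other miRNAs with the members went with their base composition in all 5 tissues. Across miRNAs with a RefSeq sequence (83.9% to 87.1% of those tested), the rank correlation of GC content with r to miR-451a was lowest in brain, at -0.428, followed by lung at -0.335, RBC at -0.309, WBC at -0.272 and heart at -0.238. With r to miR-486-5p it was 0.463 in brain, 0.448 in RBC, 0.428 in lung, 0.284 in heart and 0.261 in WBC. In brain the 74 miRNAs under 40% GC had a median r of 0.523 to miR-451a and -0.620 to miR-486-5p, and the 151 at 50% or more had -0.128 and 0.373. These are values across miRNAs of the same libraries, which are not independent replicates, and the part of base composition in the relations among the members was not tested.

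The plot of ranked r also places miR-486-5p, which stands just below the arms of miR-144 in lung and in the lower part in heart, brain and RBC. Over the miRNAs of a tissue the rank correlation of r to miR-451a with r to miR-486-5p was -0.916 in brain, -0.867 in heart, -0.717 in RBC, -0.246 in lung and 0.535 in WBC.

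Whether a mouse with more of a member in 1 tissue also had more in another was asked for 10 pairs of tissues and 4 measures. None of the 40 relations passed an adjusted p of 0.05 (permutation tests). The highest r was 0.534 (rho 0.429), for miR-144-3p in WBC and RBC (n = 27, permutation p = 0.00482, adjusted p = 0.137), and it was 0.333 without the 2 farthest mice.

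Irradiated mice were then compared with sham mice in each tissue and strain, with limma on quantile-normalised counts. A miRNA was called at an adjusted p under 0.05 over all miRNAs of the tissue and a log2 change of at least 1.17 in either direction (the fold minimum). Of the 10 comparisons of a tissue and strain, 1 had a called member, miR-451a in C3H heart.

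In C3H heart, miR-451a was lower in irradiated mice. The sham libraries had 592.8, 198.5, 881.6 and 712.1 RPM (letter A) and 158.0, 159.3, 174.2 and 163.6 RPM (letter B). The irradiated libraries had 324.9, 416.8 and 32.54 RPM (letter A) and 91.26, 102.9, 93.78 and 63.12 RPM (letter B). Of the 7 irradiated libraries 5 lay below all sham libraries, and within letter B the groups did not overlap. The log2 change was -1.34 (SE 0.42, limma adjusted p = 0.026), and 6.73% of the 312 miRNAs tested were called in this comparison.

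The call was near the threshold. It was lost in letter A alone (-1.40, adjusted p = 0.141) and in letter B alone (-1.10, adjusted p = 0.132), and was kept with the letter as a covariate (-1.29, adjusted p = 0.0229). With edgeR it was -1.07 (adjusted p = 0.0828) and with DESeq2 -1.10 (adjusted p = 0.0525), neither called. Leaving out irradiated replicate 3, the heart library with little striated muscle miRNA, gave -1.12 (adjusted p = 0.0875), and the call was also lost without irradiated replicate 7 (-1.20, adjusted p = 0.0585) or sham replicate 1, 3 or 4 (adjusted p = 0.0656, 0.0626 and 0.0623).

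Both arms of miR-144 had lower values in the same irradiated C3H hearts, and their call differed between fits. MiR-144-5p ranged from 253.0 to 663.6 RPM in sham libraries (median 386.0) and from 44.63 to 622.2 RPM in irradiated libraries (median 202.2), and 6 of 7 irradiated libraries lay below all sham libraries. Its log2 change of -1.09 (SE 0.30, limma adjusted p = 0.0112) was under the fold minimum. MiR-144-3p, with medians of 199.6 RPM in sham and 49.93 RPM in irradiated libraries that overlapped, had a log2 change of -1.40 (SE 0.63, adjusted p = 0.117). Neither arm was thus called, whereas with the animal as a block in a joint fit of all tissues both were, miR-144-5p at -1.18 (limma adjusted p = 0.0384) and miR-144-3p at -1.53 (adjusted p = 0.0299). The share of all miRNAs called in that joint fit was not recorded. Within letters A and B the changes were -1.11 (adjusted p = 0.141) and -1.09 (adjusted p = 0.0386) for miR-144-5p, and -1.17 (adjusted p = 0.205) and -1.21 (adjusted p = 0.412) for miR-144-3p.

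MiR-486-5p was not called in these hearts. A change of its ratio to miR-451a, given below, was not shown either (exact permutation adjusted p = 0.600). It ranged from 107.4 to 303.6 RPM in sham libraries (median 203.3) and from 96.33 to 353.8 RPM in irradiated libraries (median 247.2), which overlapped. The log2 changes were 0.16 (SE 0.40) for miR-486a-5p and 0.26 (SE 0.39) for miR-486b-5p, with limma adjusted p-values of 0.794 and 0.629. They differed in sign by letter, at 0.65 and 0.83 in letter A alone (adjusted p = 0.315 and 0.193) and -0.38 and -0.35 in letter B alone (adjusted p = 0.802 and 0.801). The 3p arm, miR-486a-3p, at 360 reads over all 35 heart libraries, fell by 1.66 on the log2 scale (SE 0.40, adjusted p = 0.00383).

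Of other miRNAs abundant in red cells, 1 of 10 tested was called in C3H heart, miR-182-5p at 1.44 (log2, SE 0.50, adjusted p = 0.0436), with a median change over the list of 0.14 beside -0.04 over all miRNAs tested. Of the 5 leukocyte miRNAs, 1 was called, the lymphocyte miRNA miR-150-5p at -1.63 (SE 0.16, adjusted p = 1.42e-09). Their summed level ranged from 833 to 2660 RPM in irradiated and from 1070 to 10300 RPM in sham C3H hearts, and none was at 0. The part of the leukocyte miRNAs in the miR-451a result was not tested.

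**Figure D4:**
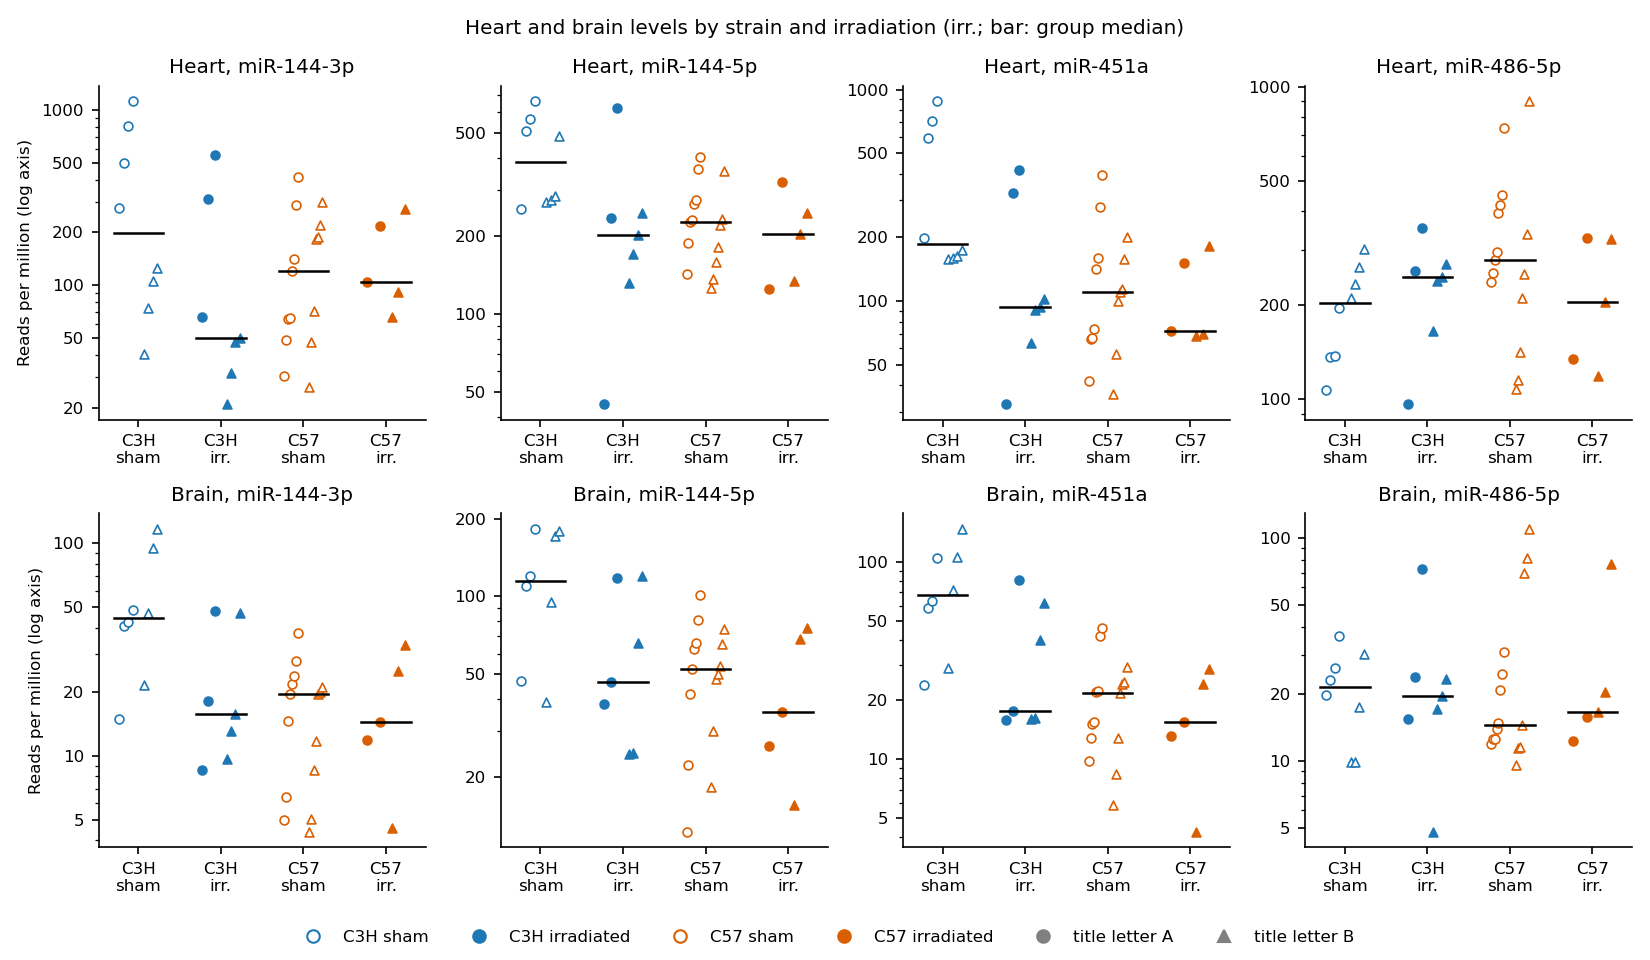
Level of miR-144-3p, miR-144-5p, miR-451a and miR-486-5p (y axis, RPM on a log scale) in each heart (upper row) and brain (lower row) library, by strain and irradiation (irr.), with circles for letter A, triangles for letter B and a bar at the group median. In heart, 5 of 7 irradiated C3H libraries lie below all sham C3H libraries for miR-451a, and in brain the 4 C57 female libraries of letter B stand above the other C57 libraries for miR-486-5p.

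The plot of heart and brain levels shows the 2 letters apart in C3H hearts as well. For miR-144-3p, sham C3H hearts of letter A had 274.7 to 1121 RPM and those of letter B 40.35 to 124.5 RPM, with no overlap.

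In C57 heart no member was called, beside 0.962% of all miRNAs. The 5 irradiated libraries had 68.18 to 182.6 RPM of miR-451a, within the sham range of 36.52 to 393.3 RPM over both sexes. Sham males had 110.2 to 393.3 RPM and sham females 36.52 to 99.95 RPM, with no overlap. The irradiated males had 151.0, 72.55, 70.27 and 182.6 RPM and the irradiated female 68.18 RPM. Irradiated replicates 2 and 3 thus lay below all sham males. Log2 changes of the members over both sexes lay between -0.57 and 0.24, the highest that of miR-144-3p. Sham males had 121.2 to 413.9 RPM of miR-144-3p and sham females 26.09 to 71.51 RPM. The irradiated males had 217.6, 104.0, 91.39 and 273.5 RPM and the irradiated female 66.24 RPM. These changes, and the strain contrast below, thus compare groups of unlike sex share. The difference between the strains in the change of miR-451a was 1.11 (C57 minus C3H, SE 0.61, limma adjusted p = 0.337), so the changes in the 2 strains were not shown to differ, and 0% of miRNAs were called for this difference (51 of 312 had an unadjusted p under 0.05).

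In lung, which lay in the field with the heart, no member was called in either strain. In C3H mice, miR-451a was at 54.33, 143.0 and 365.2 RPM in sham lungs (lowest, median and highest) and at 76.92, 311.5 and 893.0 RPM in irradiated lungs, of which 3 of 7 lay above all sham lungs. MiR-144-5p had 4 of 7 irradiated lungs above all sham lungs. The 5 log2 changes ran from 0.26 (miR-144-3p, SE 0.60) to 0.93 (miR-144-5p, SE 0.54), with limma adjusted p-values of 0.193 to 0.789, beside 9.71% of 350 miRNAs called.

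In C57 lungs, miR-451a was at 50.12, 99.76, 94.05, 35.95 and 14.19 RPM in the 5 irradiated mice and at 23.02, 72.94 and 560.7 RPM (lowest, median and highest) in 15 sham mice, and the groups overlapped. MiR-486-5p was at 17.53, 58.34, 19.87, 12.58 and 12.88 RPM in irradiated C57 lungs, of which 4 of 5 lay below the sham median of 45.88 RPM. The 5 log2 changes ran from -1.24 (miR-486b-5p, SE 0.55, adjusted p = 0.114) to -0.89 (miR-144-5p, SE 0.57, adjusted p = 0.252), beside 6% of miRNAs called. These values depended on the sexes included, and only the last of the 5 irradiated mice, at 14.19 RPM of miR-451a, was female. Among C57 males the median of miR-451a was 66.6 RPM in sham and 74.9 RPM in irradiated lungs of letter A, and 53.4 and 65.0 RPM in those of letter B. With C57 males alone the 5 log2 changes ran from -0.28 (miR-486b-5p, limma adjusted p = 0.824) to 0.23 (miR-144-5p, adjusted p = 0.861), with 4 of the 5 below 0 and smaller in size than over both sexes. MiR-486-5p had male medians of 24.8 and 37.9 RPM in sham and irradiated lungs of letter A, and of 22.1 and 16.2 RPM in those of letter B. With DESeq2 on mice of both sexes, both miR-486 rows were called, at -1.47 and -1.43 (adjusted p = 0.0326 and 0.0288). The share of all miRNAs called with DESeq2 was not recorded.

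The difference of the lung changes, C57 minus C3H, was negative for all 5 members, both miR-486 rows among them, with a median of -1.82 beside 0.00 over all miRNAs. For miR-486b-5p it was -2.10 (SE 0.75, unadjusted p = 0.00817, limma adjusted p = 0.299) and for miR-144-5p -1.82 (SE 0.78, adjusted p = 0.317), so none passed, beside 0.286% of miRNAs called. With C57 males alone, an alternative chosen after the data were seen, the 5 differences were smaller and ran from -1.14 (miR-486b-5p, SE 0.72, adjusted p = 0.512) to -0.32 (miR-144-3p, SE 0.904, adjusted p = 0.940). Month and strain, and in part sex, differ together in this contrast.

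Brain lay outside the field, and no miRNA was called there in either strain (0% of 433 each, with 9 at an unadjusted p under 0.05 in C3H and 53 in C57, and 0 called for their difference with 21 at that p). In C3H brain, miR-451a was at 23.68, 67.96 and 147.4 RPM in sham mice (lowest, median and highest) and at 15.77, 17.49 and 81.37 RPM in irradiated mice, and 4 of 7 irradiated brains lay below all sham brains. The log2 change was -1.21 (SE 0.41, unadjusted p = 0.00567, limma adjusted p = 0.818). Those of miR-144-3p and miR-144-5p were -1.19 (SE 0.45) and -0.97 (SE 0.42), and those of the miR-486 rows were 0.14 and -0.027. In C57 brain all 5 lay between -0.26 and 0.20.

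The blood fractions gave no call for irradiation either. In WBC 0% of 291 miRNAs were called in C3H, in C57 and for their difference, while 20, 12 and 5 of them had an unadjusted p under 0.05, and the members' log2 changes lay between -0.38 and 0.46. In RBC 0% of 229 were called in the same 3 contrasts, while 43, 14 and 12 had an unadjusted p under 0.05. Members' changes in RBC lay between -0.43 and 0.49 in C3H and between -0.45 and 0.12 in C57. The largest in size, that of miR-486a-5p in C3H RBC at 0.49 (SE 0.33, adjusted p = 0.402), rested on a group in which replicates 6 and 7, named above, had the most miR-486-5p. With DESeq2 both miR-486 rows passed there, at 1.22 and 1.21 (adjusted p = 0.0311 each), with the share of all miRNAs called not recorded. Without replicates 5, 6 and 7, which were set apart by these same miRNAs, the 2 rows had -0.15 and -0.27 with limma and -0.24 and -0.25 with DESeq2, given with no test since removing such libraries lowers the value by construction.

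The ratio of miR-486-5p to miR-451a was compared between irradiated and sham mice as a measure in which the scaling cancels, with two-sided exact permutation tests adjusted over 10 comparisons. None passed. The largest difference was in C3H heart, where the mean log2 ratio was 0.94 ± 1.72 in irradiated mice (SD, n = 7) and -0.63 ± 1.44 in sham mice (SD, n = 8), with 5 of 7 irradiated hearts above all sham hearts (exact permutation p = 0.078, adjusted p = 0.600). The ratio itself differed by letter in sham C3H hearts, with 0.156 to 0.541 in letter A and 1.33 to 1.74 in letter B. Within letter A the difference of mean log2 ratios was 2.22, with irradiated ratios of 0.297, 0.618 and 10.9, the last that of irradiated replicate 3 with little striated muscle miRNA. Within letter B it was 0.77, and all 4 irradiated hearts, at 1.81 to 4.30, lay above all 4 sham hearts. In C3H lung the overall difference was 0.22 (adjusted p = 0.741, exact permutation test), and the letters went opposite ways. It was 1.34 within letter A, with 1.03 to 1.53 in irradiated and 0.274 to 0.774 in sham lungs, and -0.71 within letter B, with 0.50 to 0.558 in irradiated and 0.617 to 1.22 in sham lungs, with no overlap in either. Values within a letter are a description, since before any adjustment the exact test allows a p no smaller than 0.0571 for 3 against 4 and 0.0286 for 4 against 4. In C3H brain the difference was 1.17 (exact permutation p = 0.120, adjusted p = 0.600) and in C3H RBC 1.06 (exact permutation p = 0.246, adjusted p = 0.741). When single libraries were left out these ranged from 1.16 (without irradiated replicate 3) to 2.02 in heart, from 0.74 (without irradiated replicate 2) to 1.47 in brain and from 0.49 (without irradiated replicate 7) to 1.44 in RBC. Without irradiated replicates 5, 6 and 7, picked for their low miR-451a, the RBC difference was -0.47, a value with no test from which nothing is read.

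Sham mice of the 2 strains were compared to show how far the members differ without irradiation. In brain, 3 of the 5 members were lower in C57 than in C3H mice, all of them from the chromosome 11 cluster, while 2.31% of the 433 miRNAs tested were called. MiR-451a was at 23.68, 67.96 and 147.4 RPM in 8 C3H sham brains (lowest, median and highest) and at 5.844, 21.73 and 45.98 RPM in 15 C57 sham brains. The ranges overlapped, and the log2 difference, C57 minus C3H, was -1.94 (SE 0.35, limma adjusted p = 0.000166).

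MiR-144-3p in brain differed by -1.72 (SE 0.38, adjusted p = 0.00319) and miR-144-5p by -1.23 (SE 0.35, adjusted p = 0.0218). The miR-486 rows had -0.056 (SE 0.46) and 0.034 (SE 0.45), neither called, in a group that held the 3 sham brains of C57 females of letter B with high miR-486-5p. Without the C57 female brains of letter B the rows had -0.58 (SE 0.35) and -0.45 (SE 0.33), given with no test, while miR-451a had -1.76 (limma adjusted p = 0.000588). Whether the cluster and miR-486-5p differed in this contrast was not tested. Females alone gave -2.01 for miR-451a (adjusted p = 0.00128), and within letters it was -1.60 (adjusted p = 0.0652) for A and -2.31 (adjusted p = 0.00756) for B. MiR-144-5p was lost in females alone (-1.03, adjusted p = 0.0793), in letter A (-1.22, adjusted p = 0.162), in letter B (-1.24, adjusted p = 0.0984), with the animal as a block (-1.25, limma adjusted p = 0.109) and without any 1 of 6 single libraries. MiR-144-3p was lost in letter A (-1.11, adjusted p = 0.223) and kept in letter B (-2.40, adjusted p = 0.00739). None of 10 other miRNAs abundant in red cells was called (median -0.07), and of the 5 leukocyte miRNAs 1 was, miR-155-5p at 1.38 (SE 0.32, adjusted p = 0.00484).

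In heart, miR-451a was lower in C57 than in C3H sham mice as well, with 4.49% of miRNAs called. Its medians were 110.2 RPM in C57 (36.52 to 393.3 RPM, n = 15) and 186.3 RPM in C3H (158.0 to 881.6 RPM, n = 8), and the log2 difference was -1.36 (SE 0.36, limma adjusted p = 0.00765). It was -1.89 within letter A (adjusted p = 0.0157), -0.80 within letter B (adjusted p = 0.176) and -1.99 in females alone (adjusted p = 0.000259). MiR-144-5p differed by -0.74 (SE 0.26, adjusted p = 0.0483), under the fold minimum, and miR-486a-5p and miR-486b-5p had 0.64 and 0.72 (adjusted p = 0.227 and 0.156). These miR-486 values turned sign with the letter, at 1.60 and 1.79 in letter A, both called (limma adjusted p = 0.00693 and 0.00276), and -0.39 and -0.40 in letter B (adjusted p = 0.592 and 0.551). MiR-144-3p, at -0.92 over all libraries (adjusted p = 0.262), did so too, with -2.16 in letter A (adjusted p = 0.00834, called) and 0.36 in letter B (adjusted p = 0.720), and it was called in females alone at -1.88 (adjusted p = 0.0152).

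In lung, 4.86% of miRNAs were called between the strains, among them miR-486a-5p at -1.24 (SE 0.47, limma adjusted p = 0.0434). MiR-486b-5p, whose counts cannot be told from it, missed at -0.98 (adjusted p = 0.094), and the 2 rows summed gave -1.11 (adjusted p = 0.0669), so no strain difference of miR-486-5p was established in lung. In females alone the value for miR-486a-5p was -0.16 (adjusted p = 0.877).

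In WBC, 25.1% of miRNAs were called between the strains and no member was. MiR-144-3p had -0.63 (SE 0.24, adjusted p = 0.0317), under the fold minimum, with 6261 to 11490 RPM in C3H and 5298 to 9748 RPM in C57 sham mice. With TMM factors, edgeR or DESeq2, miR-144-3p and both miR-486 rows, which are 1 measure, were called. The values with TMM factors were -1.31 for miR-144-3p (limma adjusted p = 0.000388) and -1.37 for each miR-486 row (adjusted p = 0.015 and 0.0149). With library size alone 0 were called and miR-144-3p had -0.33 (adjusted p = 0.259). The 25.1% is that of the main fit, and the share of all miRNAs called in these alternatives was not recorded. MiR-486a-3p was called at -1.56 (SE 0.44, adjusted p = 0.00557), as was 1 of 11 other miRNAs abundant in red cells, miR-92a-3p at -1.34 (SE 0.24, adjusted p = 0.000132), and 1 of 5 leukocyte miRNAs, miR-223-3p at 1.38 (SE 0.45, adjusted p = 0.0162). In RBC, 10.5% of miRNAs were called and no member was, with differences of -0.12 to 0.13, while miR-486a-3p had -1.38 (SE 0.37, adjusted p = 0.00458).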

How the data were processed

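MiRNA libraries of 5 tissues were used, 167 from 35 mice, with groups taken from the sample labels. Per the study's methods, the authors prepared the libraries with a QIAseq kit, sequenced them on a NextSeq, aligned reads in BaseSpace (build mm10) and dropped runs poor in miRNA reads. The deposited tables hold raw read counts of 1915 miRNAs, not normalised, whereas the authors' own analysis scaled them by library size and then by quantiles. Whether molecular identifiers were counted was not stated, so the binomial test of the 2 miR-486-5p rows covers counting error only, while the other tests use mice as replicates. The plasma time course was not analysed here.

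Counts passing filterByExpr of edgeR 4.0.16 (minimum 10, total minimum 15) were fitted by limma 3.58.1 in R 4.3.3 with voom and quantile normalisation, 4 groups per tissue in 1 model, and Benjamini-Hochberg adjustment over all miRNAs of a tissue. A call needed an adjusted p under 0.05 and a log2 change of at least 1.17 in either direction. Levels were compared as log2(RPM + 1) and ratios with 0.5 counts added, in SciPy 1.17.1, by sign flips within animals (100000 resamples, 40 tests of levels and 10 of each ratio). Likewise 100000 resamples gave the p-values of correlations. RefSeq sequences and annotated positions were those of GRCm38. DESeq2 1.42.0, edgeR, other scalings, filters, covariates, subsets and single libraries left out were alternatives. The fits were tested on simulated data.

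The members and lists were chosen with earlier results of these data known. Besides the members, the text names listed miRNAs that were called and the 5 miRNAs with the highest mean r to miR-451a in solid tissues and in blood, and other exceptions are said to be chosen after their values were seen. Libraries of different tissues came from the same animals per the labels, with a consensus correlation of 0.017 in the joint fit with the animal as a block.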

Additional observations from a re-analysis of the deposited data

Results flagged for a closer look

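Groups of 4 to 10 libraries were searched for a library whose gap to its nearest neighbour was a large part of the group's range, over 60 combinations of group and measure. Chance marks about 1 in 20 groups. The search marked 4 values, 3 of them in 1 library.

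In WBC, C3H irradiated replicate 6 had 2650 RPM of miR-144-3p, 2370 RPM of miR-144-5p and 1540 RPM of miR-451a, below the other 5 libraries of the group, whose lowest values were 6872, 6604 and 5573 RPM. Its miR-486-5p, at 22810 RPM, lay within the range of the group (7334 to 27360 RPM), and its miR-16-5p was the highest of the group at 607500 RPM.

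In brain, C57 irradiated replicate 5, the only female of its group, had 76.6 RPM of miR-486-5p, above the other 4 libraries at 12.32 to 20.46 RPM. Its miR-451a was the lowest of the group at 4.271 RPM. The 3 sham C57 female brains of the same letter had 81.29, 69.35 and 110.1 RPM of miR-486-5p.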

How the results depend on the processing

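Members are counted here as 5 rows, so miR-486-5p, 1 measure, counts as 2. Of 6 called member changes none changed sign in any alternative. Of 69 that were not called, 43 differed in sign in at least 1 alternative, leaving aside those chosen after seeing the data, and 13 were called in at least 1. In C3H heart (1 member called by the main test), 0 members were called with edgeR, DESeq2, library size alone, a filter of 1 count, 1 strain at a time, letter A alone or letter B alone, 2 with no fold minimum, and 0 to 3 when single libraries were left out. The lung strain difference (1 called) had 0 with edgeR, DESeq2, library size alone, either filter, either letter, females alone or summed rows, and 0 to 2 without single libraries. The heart strain difference (1 called) had 2 with no fold minimum, 4 in letter A, 0 in letter B, 2 in females alone and 0 to 1 without single libraries. The brain strain difference (3 called) had 0 in letter A and 2 to 3 without single libraries, miR-144-5p being lost without C57 sham replicate 1, 4 or 13 or C3H sham replicate 4, 5 or 7. The WBC strain difference (0 called) had 3 with edgeR, DESeq2 and TMM, 1 with no fold minimum and 2 in letter B. With DESeq2, the 2 miR-486 rows were called in irradiated C57 lung and in irradiated C3H RBC. The share of all miRNAs called was recorded for the main fit alone. Counts in the alternatives, here and in the joint fit below, thus stand without a background. The causes were not tested.

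With the animal as a replicate block in a joint fit of all tissues, 3 members were called in C3H heart, 0 in the lung strain difference and 2 in that of brain, where miR-144-5p was lost (-1.25, limma adjusted p = 0.109). Without the pairing of tissues by animal, the heart minus brain log2 ratio of miR-486-5p to miR-451a stayed 1.15 (adjusted permutation p = 0.0762) and that of miR-144-3p to miR-144-5p 0.58 (adjusted permutation p = 0.0443), and over all animals the latter was 0.55 (adjusted permutation p = 0.0223). The other calls made in the paired tests were kept. Without the C57 female brains of letter B, chosen after seeing the data, the brain minus RBC log2 ratio of miR-486-5p to miR-451a, was -1.201 in place of -0.50, a value with no test since those brains were set apart by their miR-486-5p.

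Quantile-normalised values gave r of -0.491 for miR-451a and miR-486-5p in heart, -0.369 (miR-144-3p) and -0.409 (miR-451a) with miR-486-5p in brain, all past the threshold, and 0.223 for the miR-144 arms in RBC, not past it. Sham libraries alone gave 0.527 for miR-144-3p and miR-451a in WBC and, in RBC, -0.365, -0.330 and -0.081 for miR-486-5p with miR-144-3p, miR-144-5p and miR-451a, none past it. With means of group, sex and letter removed, chosen after seeing the data, miR-144-3p and miR-486-5p in heart had -0.329, and without the 3 RBC libraries picked by these values miR-451a and miR-486-5p had -0.169, with no test. Brain members rest on few reads (down to 4), which limits their precision.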
